A study of Mus musculus with 6 samples.

Results

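A set of 44 genes of protein folding and stress signaling in the endoplasmic reticulum (ER) were examined in a mouse colorectal tumor line and in a mutant derived from it. The genes were taken by symbol from a list of chaperones, disulfide enzymes, genes of ER-associated degradation, stress sensors and parts of the translocon. Of the 44 symbols, 43 had a row among the 24346 symbols in the deposited tables. Of these, 42 had a mean FPKM (fragments mapped to a transcript, scaled to its length and to the depth of the library) of 1 or more and were tested among 10597 genes. The lowest value of any of these 42 genes in any sample was 2.06 FPKM, so none entered the test through 1 group alone. Derl3, a derlin of the degradation pathway, was listed at 0 FPKM in all 6 samples. The symbol Sels had no row, and its gene was found under the RefSeq synonym Vimp, which is described with the degradation genes but not counted.

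Both cell lines were CT26, a mouse colon carcinoma line, made to overexpress mouse MR1, the molecule that presents metabolites to mucosal-associated invariant T (MAIT) cells. The parental line (CT26.mMR1) carried MR1 from a retrovirus. M8 was obtained from this line by treatment with the mutagen N-ethyl-N-nitrosourea (ENU) and limiting dilution. It was found in a screen for mutants that activated a MAIT cell reporter more strongly, and was taken further because its surface MR1 was higher than in parental cells. RNA from 3 replicates of each line was sequenced, under sample titles CT26_cl9 for parental cells and CT26_cl9_M8 for M8. The meaning of cl9 is not given in the sources used here. M8 is 1 clone, so an effect of a mutation and a difference between clones cannot be told apart, and MR1, itself folded in the ER, was overexpressed in both groups.

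Secretory and membrane proteins enter the ER through the Sec61 translocon, are kept soluble by chaperones, and receive disulfide bonds from protein disulfide isomerases that are reoxidized by Ero1 oxidases. Proteins that fail to fold are extracted by a ubiquitin ligase complex and destroyed in the cytosol. When unfolded proteins accumulate, the sensors IRE1, PERK and ATF6 start the unfolded protein response, in which XBP1 and cleaved ATF6 raise transcription of chaperone genes through promoter elements, and PERK slows translation.

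The replicates held an estimated 19.4 to 26.9 M mapped reads, read from the steps between the FPKM values of weakly expressed genes. By this estimate the M8 samples were shallower, at 0.772 to 0.875 of the depth of parental replicate 1, against 0.949 to 1.07 in the parental samples. The estimate takes FPKM as divided by mapped reads with no other library scaling, which was not checked. The median coefficient of variation between replicates of the 42 genes was 3.85% in parental cells and 2.47% in M8, against 5.62% and 4.42% over all genes tested. Markers of other cell types were looked up because bulk values cannot separate cells. Of 10 colon epithelial markers, Epcam, Cdh1 and Cdx2 were listed at 0 in all samples, the keratin genes Krt18 and Krt20 and Lgals4 passed the filter, and no other exceeded 0.117 FPKM. The summed FPKM of these 10 genes was 41.9 to 57.7 in parental cells and 48.2 to 50.2 in M8, and most of it was Krt18. Krt18 had 32.5 ± 6.97 FPKM in parental cells and 36.4 ± 1.85 in M8 (SD, n = 3 each) and did not pass (log2 0.18, limma adjusted p = 0.321). Krt20 and Lgals4 were lower in M8 (17.4 ± 2.36 against 11.9 ± 0.979 FPKM and 1.68 ± 0.438 against 0.680 ± 0.106 FPKM, SD, n = 3 each; limma adjusted p 0.00438 and 0.00728). Of 8 immune and endothelial markers, Cd68 alone passed the filter, at 4.31 ± 0.563 FPKM in parental cells and 1.76 ± 0.605 in M8 (SD, n = 3 each), and the list summed to 3.81 to 4.92 and to 1.41 to 2.49 FPKM. The 6 fibroblast markers summed to 585 to 617 FPKM in parental cells and 561.6 to 590.1 in M8, and Pdgfra and Dcn of that list were lower in M8. Col1a1 had all M8 values above the parental ones but did not pass (log2 0.078, limma adjusted p = 0.188), nor did Col1a2 (-0.062, 0.271). The part of these differences in the results on ER genes was not tested.

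Most of the 42 genes differed by small amounts between the lines. By the ratio of mean FPKM, 1 gene was past 1.5-fold, Ero1lb, which was 1.63-fold lower in M8. On the scale of log2(FPKM + 1) used for the test, none was. In limma with Benjamini-Hochberg adjustment, M8 had 8 higher (19.0%) and 9 lower genes (21.4%) at an adjusted p below 0.1, and 25 did not pass. Over all genes tested, 37.7% passed, 21.2% as higher and 16.5% as lower, and on this deposited scale the shares of the 42 genes were near those of the whole table. They were not under other scalings, where the lower share was 40.5% with TPM (20.8% of all genes), 47.6% after quantile normalization (16.7%) and 47.6% with upper-quartile scaling (26.1%), and the higher share was 14.3% (15.6%), 7.14% (17.2%) and 7.14% (13.9%). The 42 log2 fold changes had a median of -0.056 and a range from -0.55 to 0.23, and the median over all genes tested was 0.0069. This scale understates changes in low genes. The values of the lines did not overlap for 22 genes (52.4%), 11 with all M8 values above and 11 below, against 24.8% above and 20.4% below, or 45.2% in all, over the genes tested. In RefSeq, 9 of the 43 genes overlap another protein-coding gene (Hspa5, Fkbp2, Ppib, Pdia3, Pdia6, Syvn1, Derl2, Atf6 and Ppp1r15a), and whether the FPKM values separate strands is not given in the sources used here. In bulk RNA, less RNA per cell and fewer cells with the transcript cannot be told apart.

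**Figure D1:**
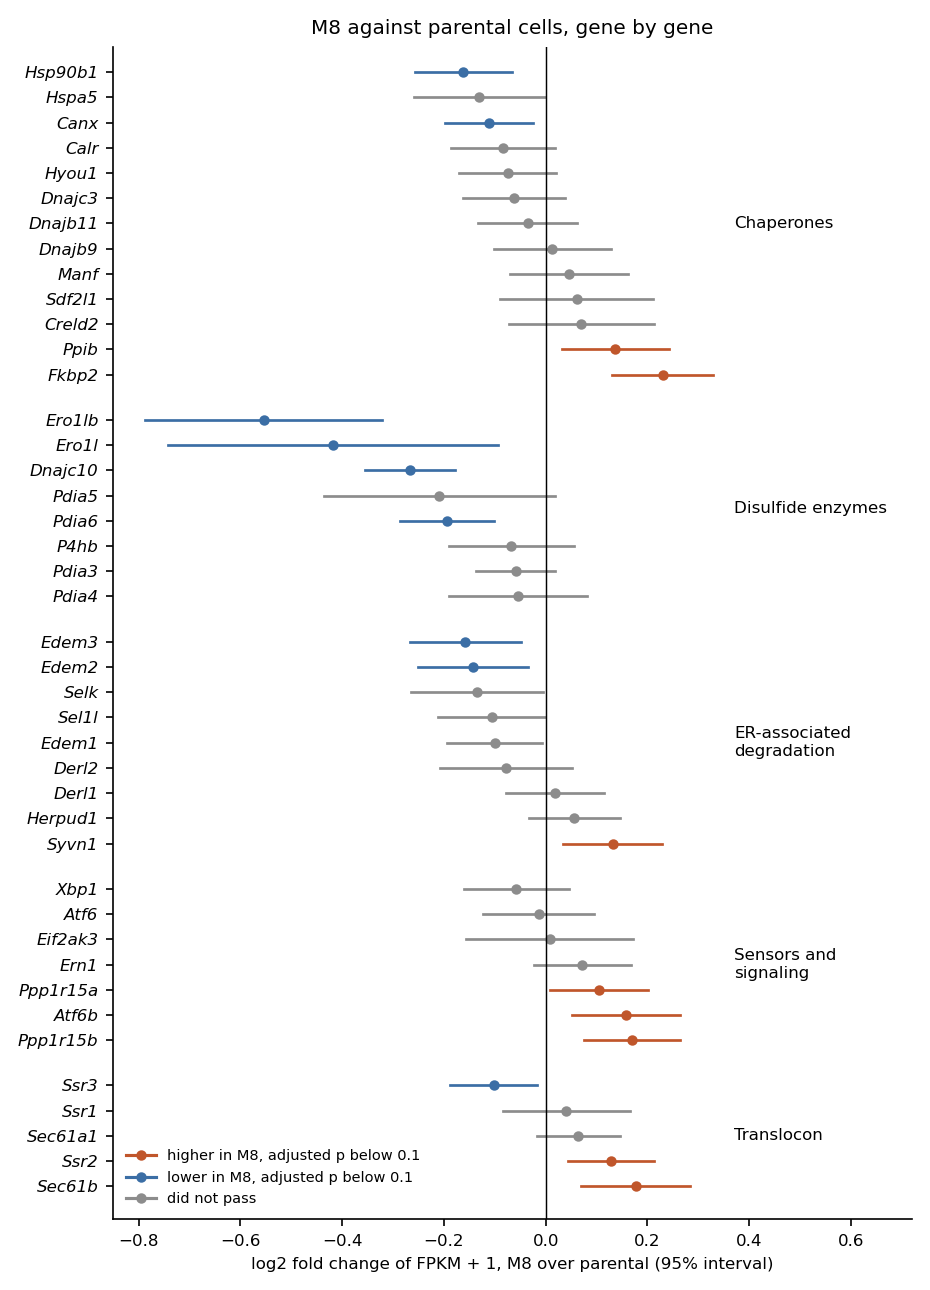
Log2 fold change of FPKM + 1 in M8 over parental cells for the 42 tested genes, grouped by role, with the 95% interval from limma (x axis, log2 units). Orange marks genes higher in M8 and blue marks genes lower in M8 at an adjusted p below 0.1. All 8 disulfide enzymes lie left of 0, and the 3 called genes among the sensors and signaling genes lie right of it.

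All 8 disulfide enzymes had a negative difference and 4 of them were lower in M8, with a median of -0.20. Of 13 chaperones and cochaperones, 2 were higher and 2 lower (median -0.036), and of 9 tested degradation genes, 1 was higher and 2 lower (median -0.10). Of 7 sensors and signaling genes, 3 were higher and none lower, also at an unadjusted p below 0.05 (median 0.072), and of 5 translocon genes, 2 were higher and 1 lower (median 0.064). Over all genes tested, 21.2% were higher and 16.5% lower, and 5143 of 10597 had a negative difference. The class counts and medians are descriptions, since no test compared the classes. The counts of every class changed with the scaling of the samples. Under TPM, quantile normalization and upper-quartile scaling, 1 to 2 chaperones were higher and 5 to 6 lower, and 0 to 1 degradation genes were higher and 5 lower. The sensor genes had 2 higher and 0 lower with TPM, and 1 higher and 1 lower with each of the other methods. The translocon genes had 2 higher and 1 lower with TPM, 0 and 1 after quantile normalization and 1 and 1 with upper-quartile scaling. The higher and lower shares of all genes tested were 15.6% and 20.8%, 17.2% and 16.7%, and 13.9% and 26.1% under these 3 scalings.

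**Figure D2:**
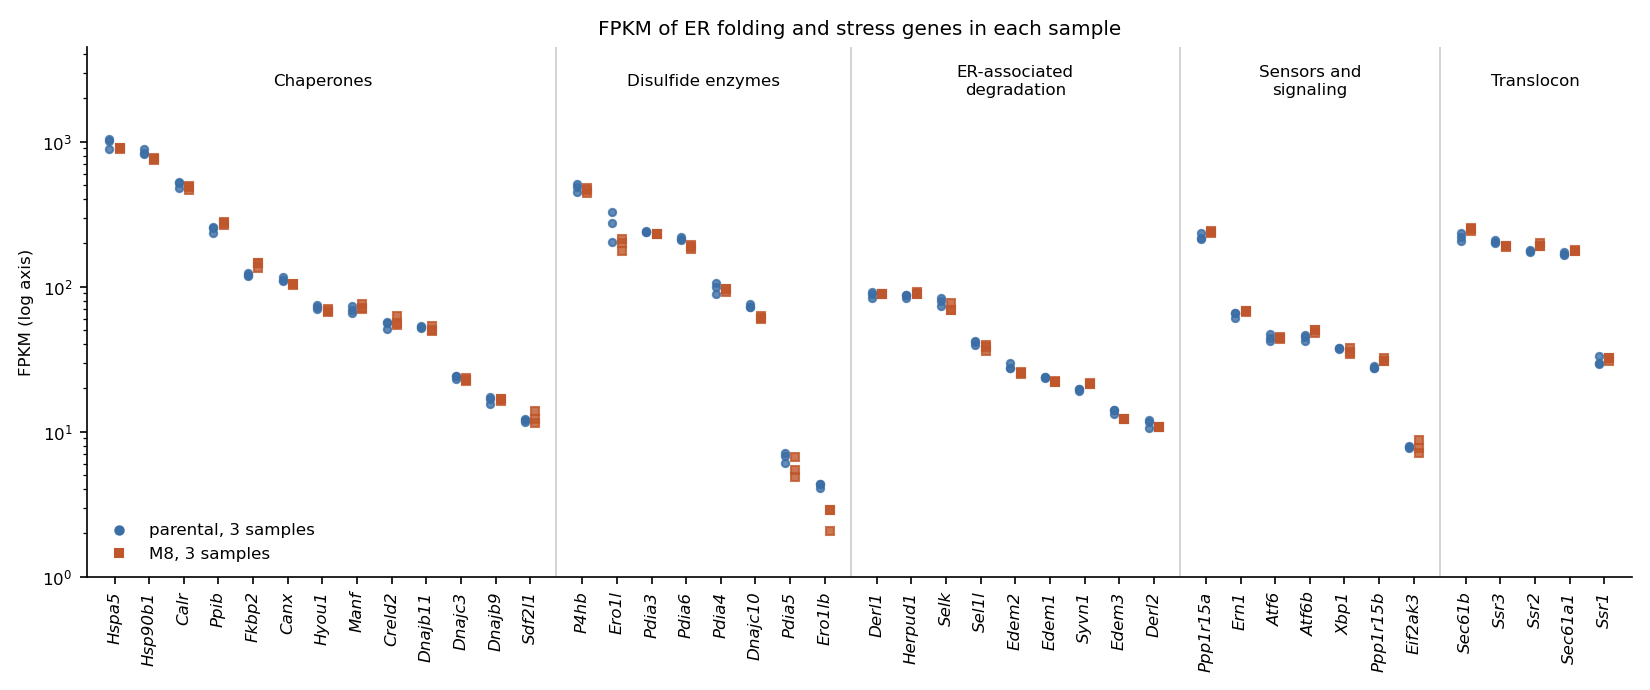
FPKM of the 42 tested genes in each of the 6 samples (y axis, log scale), grouped by role and ordered by mean level. Blue circles are the 3 parental samples and orange squares the 3 M8 samples. The genes span from Hspa5, with means of 985 and 898 FPKM, to Ero1lb, with 4.28 and 2.62 FPKM, and the lines lie close together for most genes.

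The highest levels were those of the general chaperones. Hspa5 encodes BiP, the Hsp70 chaperone of the ER that also holds the stress sensors inactive, and ranked 103rd of all genes by mean FPKM. Its parental samples had 1010.1, 896 and 1050.1 FPKM and its M8 samples 899, 902 and 893 FPKM. The M8 values were nearly equal and lay close to the lowest parental value. The difference was -0.13 ± 0.057 on the log2 scale (SE) and did not pass (limma adjusted p = 0.117), but without parental replicate 2, the low parental value, it was -0.20 with a limma adjusted p of 0.0151. Hsp90b1, which encodes the ER Hsp90 chaperone GRP94, had 822, 843 and 890 FPKM in parental cells against 746, 766 and 771 in M8. All 3 M8 values were below the parental ones, and the gene was lower by limma (log2 -0.16 ± 0.043, adjusted p = 0.0204).

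The lectin chaperones calnexin and calreticulin hold glycoproteins while they fold. Canx had 109.6, 111 and 116 FPKM in parental cells and 103, 104 and 105 in M8 and was lower (log2 -0.11 ± 0.039, limma adjusted p = 0.0590). That call did not pass without parental replicate 3 (-0.085) or without M8 replicate 1, 2 or 3 (-0.11, -0.11 and -0.12), with limma adjusted p between 0.117 and 0.160. Calr, at 509 ± 22.8 FPKM in parental cells and 480 ± 15.1 in M8 (SD, n = 3 each), did not pass (log2 -0.08, limma adjusted p = 0.197), but was lower under TPM (-0.12, 0.0638), quantile normalization (-0.18, 0.0143) and upper-quartile scaling (-0.15, 0.0308). Hyou1, an exchange factor for BiP, differed by -0.07 and did not pass (limma adjusted p = 0.216), but was lower under the same 3 scalings (-0.11, -0.15 and -0.14, limma adjusted p 0.0791, 0.0302 and 0.0363).

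Of the cochaperones and small stress-induced folding factors in the chaperone class, Dnajb9, Dnajb11, Dnajc3, Sdf2l1, Manf and Creld2 did not pass the test. Dnajc10, another J-domain partner of BiP, is given with the disulfide enzymes. Dnajb9 had 16.5 ± 0.846 FPKM in parental cells and 16.7 ± 0.208 in M8 (SD, n = 3 each), and the 95% interval of its log2 difference ran from -0.10 to 0.13. The interval for Sdf2l1, a partner of BiP complexes, ran from -0.09 to 0.21, and that for Creld2, a secreted stress-induced protein, from -0.07 to 0.21. These intervals do not exclude small differences in either direction. Dnajb11, Dnajc3 and Manf had log2 differences of -0.04, -0.06 and 0.05, with limma adjusted p of 0.567, 0.330 and 0.535.

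Of the listed prolyl isomerases, Fkbp2 and Ppib, both were higher in M8. Fkbp2, an FK506-binding isomerase of the ER lumen, had 120.0, 124 and 118 FPKM in parental cells and 146, 145 and 135 in M8. Every M8 value was above every parental value, and the log2 difference was 0.23 ± 0.044 (limma adjusted p = 0.00527), the largest increase among the 42 genes. Other ER prolyl isomerases are named here after their values were seen. Fkbp11 was lower (log2 -0.28, limma adjusted p = 0.00467), and Fkbp7, Fkbp9, Fkbp14 and Ppic did not pass (-0.23, -0.10, -0.26 and 0.0016). Fkbp9 was lower under TPM, quantile normalization and upper-quartile scaling (-0.14, -0.19 and -0.16), Fkbp14 under TPM and upper-quartile scaling (-0.32 and -0.30) and Fkbp7 under upper-quartile scaling (-0.29), with limma adjusted p of 0.0107 to 0.0791. Fkbp10 was higher (0.14, limma adjusted p = 0.0425), but not past the threshold under TPM, quantile normalization or upper-quartile scaling (0.10, 0.062 and 0.075) or without parental replicate 3 (0.10, 0.103), M8 replicate 1 (0.13, 0.115) or M8 replicate 2 (0.13, 0.112). Ppib, which encodes cyclophilin B, had 234, 256 and 259 FPKM in parental cells and 267, 279 and 276 in M8, without overlap. It was higher (log2 0.14 ± 0.047, limma adjusted p = 0.0565), but did not pass without parental replicate 1 (0.091, adjusted p = 0.109), M8 replicate 2 (0.12, 0.167) or M8 replicate 3 (0.13, 0.140).

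The disulfide enzymes were the class with the largest differences. The Ero1 oxidases pass electrons from protein disulfide isomerases to oxygen, and both were lower in M8. Ero1lb (RefSeq symbol Ero1b, GRCm38.p6 chromosome 13, 12565818 to 12609533) had 4.11, 4.35 and 4.38 FPKM in parental cells and 2.06, 2.89 and 2.90 in M8. The M8 values were all well below the parental ones, and the log2 difference of -0.55 ± 0.10 was the largest of the 42 genes in either direction (limma adjusted p = 0.00483). It was a low gene, ranking 9221st by mean FPKM.

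Ero1l (RefSeq symbol Ero1a, chromosome 14, 45283087 to 45318572), the more abundant oxidase, had 203, 329 and 275 FPKM in parental cells and 178, 201 and 215 in M8. Its parental samples were the most variable of any of the 42 genes, with a coefficient of variation of 23.4%, and parental replicate 1 lay among the M8 values. The gene was lower by limma (log2 -0.42 ± 0.14, adjusted p = 0.0571), and the value depended on single samples. Without parental replicate 1 it was -0.61 (limma adjusted p = 0.00301), and without parental replicate 2 it was -0.26 (adjusted p = 0.153). It did not pass without parental replicate 3 (-0.39, limma adjusted p = 0.128), M8 replicate 1 (-0.34, 0.181) or M8 replicate 2 (-0.43, 0.110).

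Dnajc10, also called ERdj5, is a disulfide reductase that unfolds substrates for degradation. Its values were 75.6, 72.9 and 72.5 FPKM in parental cells and 60.6, 60.0 and 62.5 in M8, and the groups were far apart relative to their spread. The gene (chromosome 2, 80315446 to 80354055) was lower by -0.27 ± 0.039 on the log2 scale (limma adjusted p = 0.00174). Pdia6, the isomerase P5 that also binds the stress sensor IRE1, had 212, 211 and 221 FPKM in parental cells and 182, 195 and 187 in M8. All its M8 values were below the parental ones, and it was lower (log2 -0.19 ± 0.041, limma adjusted p = 0.00828).

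The other isomerases did not pass. P4hb, the most abundant of the class, had 484 ± 32.1 FPKM in parental cells and 461 ± 18.9 in M8 (SD, n = 3 each), and its groups overlapped. Pdia3, the isomerase that works with calnexin and in MHC class I loading, had 240 ± 2.80 and 230.2 ± 0.526 FPKM, without overlap, at a limma adjusted p of 0.229. Pdia4 and Pdia5 differed by -0.05 and -0.21 on the log2 scale, with limma adjusted p of 0.525 and 0.152, and without M8 replicate 2 Pdia5 was lower (-0.32, limma adjusted p = 0.0389). The summed FPKM of the 8 enzymes was 1280 to 1473 in parental cells and 1190 to 1268 in M8, a ratio of 0.892 between the means.

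**Figure D3:**
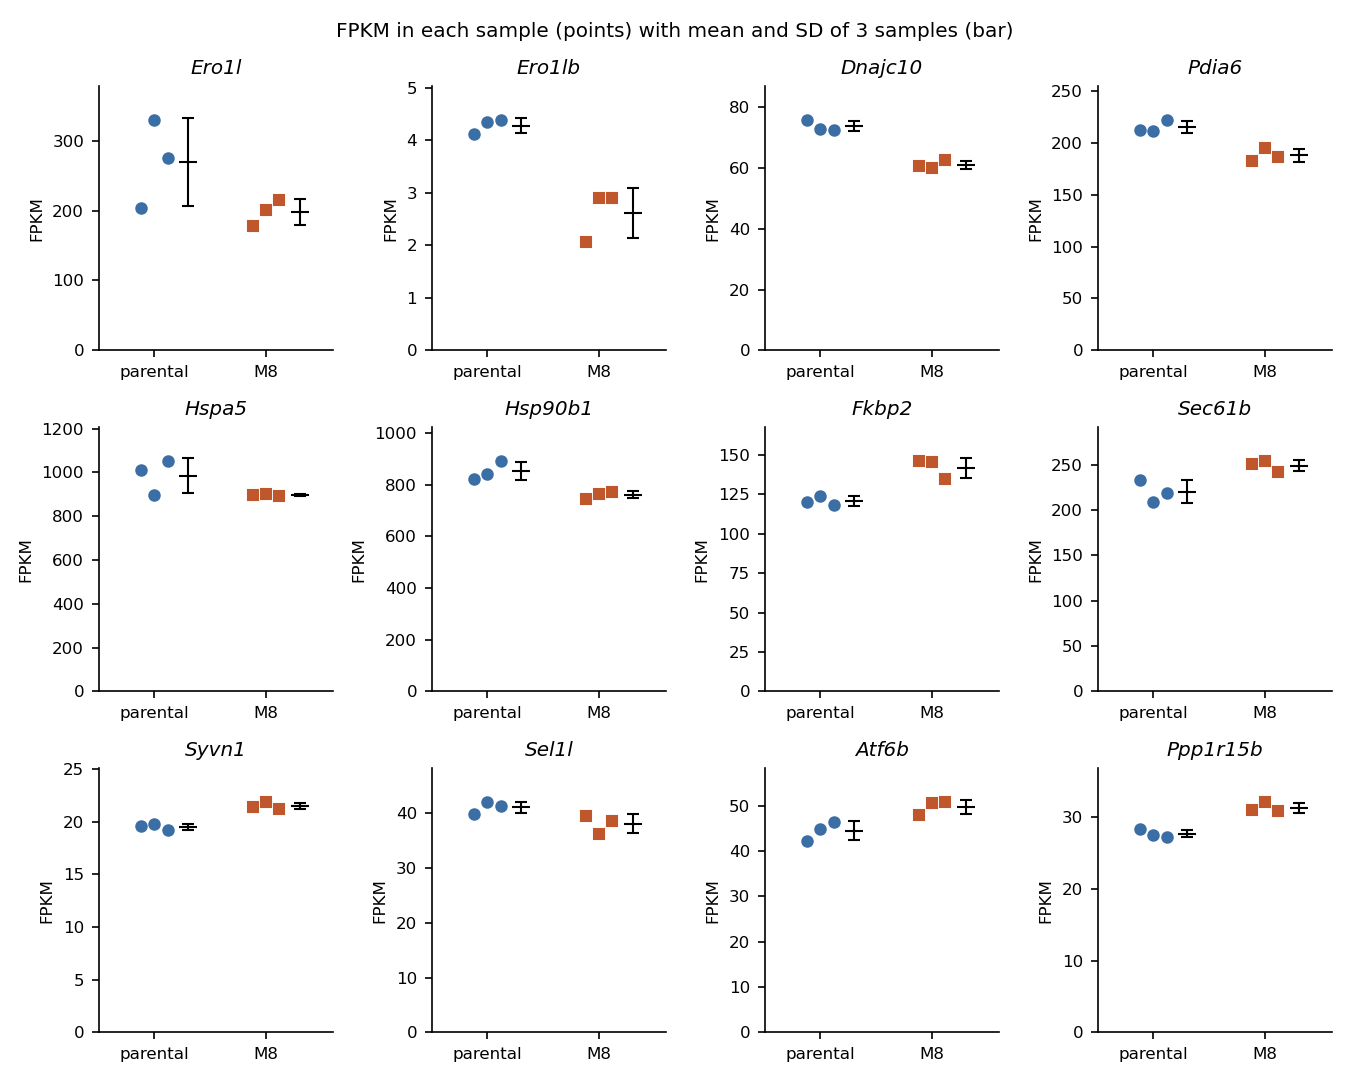
FPKM of 12 genes in each sample (y axis from 0), with blue circles for parental and orange squares for M8 samples and the mean ± SD of 3 samples beside them. Ero1lb, Dnajc10, Pdia6 and Hsp90b1 are lower in M8 without overlap, Fkbp2, Sec61b, Syvn1, Atf6b and Ppp1r15b are higher without overlap, and Ero1l and Hspa5 overlap.

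Of the 9 tested genes of ER-associated degradation, 3 passed, Edem2 and Edem3 as lower and Syvn1 as higher. The EDEM proteins trim mannose from misfolded glycoproteins to mark them. Edem3 had 14.1, 13.3 and 14.1 FPKM in parental cells and 12.3, 12.3 and 12.3 in M8, and was lower (log2 -0.16 ± 0.049, limma adjusted p = 0.0389). Edem2 had 27.6, 27.3 and 29.9 FPKM in parental cells and 25.9, 25.2 and 25.4 in M8, and was lower (log2 -0.14 ± 0.048, adjusted p = 0.0514 by limma). Edem1 had no overlap either, at 23.8 ± 0.293 and 22.1 ± 0.238 FPKM (SD, n = 3 each), and missed the threshold (log2 -0.10, limma adjusted p = 0.102), but was lower under TPM (-0.14), quantile normalization (-0.13) and upper-quartile scaling (-0.16), with limma adjusted p of 0.0189 to 0.0505. The Edem3 call did not pass without M8 replicate 1 or 2 (-0.16 in both, limma adjusted p 0.101 and, at the threshold, 0.1), nor the Edem2 call without parental replicate 3 (-0.10, 0.127) or M8 replicate 1 (-0.16, 0.101), 2 (-0.14, 0.139) or 3 (-0.14, 0.119).

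The ubiquitin ligase HRD1 and its partner SEL1L form the channel complex through which proteins leave the ER. Syvn1, which encodes HRD1, had 19.6, 19.8 and 19.2 FPKM in parental cells and 21.4, 21.8 and 21.2 in M8. Among the counted degradation genes, which leave out Vimp, it was the 1 that was higher (log2 0.13 ± 0.043, limma adjusted p = 0.0481). Its call did not pass without M8 replicate 1 (0.13, limma adjusted p = 0.112) or 2 (0.12, 0.144). Sel1l was 41.1 ± 1.09 FPKM in parental cells and 38.1 ± 1.75 in M8 (SD, n = 3 each), with no overlap and a log2 difference of -0.11 (limma adjusted p = 0.120). It was lower under TPM (-0.14), quantile normalization (-0.17) and upper-quartile scaling (-0.17), with limma adjusted p of 0.0224 to 0.0502.

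None of the 4 tested membrane proteins of the extraction machinery, Herpud1, Derl1, Derl2 and Selk, passed. Herpud1, a stress-induced scaffold of the ligase, was 86.7 ± 2.24 FPKM in parental cells and 90.2 ± 2.16 in M8 (SD, n = 3 each), with no overlap, and did not pass (limma adjusted p = 0.318). Derl1, Derl2 and the selenoprotein gene Selk had log2 differences of 0.02, -0.08 and -0.14, with limma adjusted p of 0.787, 0.341 and 0.107. Selk was lower without parental replicate 2 (-0.19, limma adjusted p = 0.0498) or M8 replicate 1 (-0.18, 0.0676). Vimp, the gene listed as Sels, encodes the selenoprotein that links derlins to the p97 ATPase. It had 59.6, 57.1 and 56.0 FPKM in parental cells and 68.0, 69.3 and 68.5 in M8. This gene was higher without overlap (log2 0.25 ± 0.040, limma adjusted p = 0.00245).

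Messages of the stress sensors themselves did not pass the test. Ern1, which encodes IRE1, was 64.3 ± 2.64 FPKM in parental cells and 67.6 ± 0.802 in M8 (SD, n = 3 each; limma adjusted p = 0.233), and all its M8 values were above the parental ones. Xbp1, the transcription factor whose mRNA IRE1 splices, was 37.6 ± 0.377 and 36.1 ± 1.76 FPKM (limma adjusted p = 0.376), and the tables give 1 value per gene, so its spliced form was not analysed here. Atf6 was 44.8 ± 2.43 and 44.3 ± 1.01 FPKM (limma adjusted p = 0.855). Eif2ak3, which encodes PERK, was 7.84 ± 0.136 and 7.91 ± 0.837 FPKM, with a 95% interval of the log2 difference from -0.16 to 0.17.

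Of this class, 3 genes were higher in M8. Atf6b, the paralog of Atf6, had 42.3, 44.9 and 46.3 FPKM in parental cells and 47.9, 50.6 and 50.7 in M8, without overlap (log2 0.16 ± 0.047, limma adjusted p = 0.0344). It did not pass without M8 replicate 2 (0.14, limma adjusted p = 0.111) or 3 (0.14, 0.103). The remaining pair encodes the regulatory subunits that direct a phosphatase to eIF2α and so undo the translation block set by PERK. Ppp1r15b, the constitutive subunit CReP, had 28.3, 27.5 and 27.3 FPKM in parental cells and 31.0, 32.1 and 30.9 in M8, with a clear gap between the groups (log2 0.17 ± 0.042, limma adjusted p = 0.0164). Ppp1r15a, the stress-induced subunit GADD34, had 215, 216 and 233 FPKM in parental cells and 243, 234 and 238 in M8, and parental replicate 3 nearly reached the M8 values. Its call was the weakest (log2 0.11 ± 0.043, limma adjusted p = 0.0971), and of the 6 fits that left out 1 sample it passed only without parental replicate 3. In the other 5 its limma adjusted p was 0.153 to 0.258.

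The translocon genes had higher and lower members. Sec61b, the beta subunit of the channel, had 234, 208 and 219 FPKM in parental cells and 251, 254 and 242 in M8, without overlap (log2 0.18 ± 0.048, limma adjusted p = 0.0232). Sec61a1, the channel subunit itself, had 173, 169 and 166 FPKM in parental cells and 177, 179 and 176 in M8, without overlap, and did not pass (log2 0.06, limma adjusted p = 0.210). The Ssr genes encode the translocon-associated complex TRAP, which helps some signal peptides open the channel. Ssr2 was higher, at 177 ± 3.11 against 193 ± 4.80 FPKM (SD, n = 3 each; log2 0.13 ± 0.038, limma adjusted p = 0.0322), and Ssr3 was lower, at 204 ± 6.23 against 190.3 ± 1.10 FPKM (log2 -0.10 ± 0.038, limma adjusted p = 0.0703). Ssr1 did not pass (log2 0.04, limma adjusted p = 0.613). The Ssr2 call did not pass without M8 replicate 2 (0.11, limma adjusted p = 0.134). The Ssr3 call passed only without parental replicate 3, and had a limma adjusted p of 0.107 to 0.178 in the other 5 fits without 1 sample.

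Partners were also compared as ratios within each sample, as differences of log2(FPKM + 1). In all, 10 pairs were compared, chosen with the values known, by an exact two-sided permutation test that cannot go below p = 0.1 with 3 samples against 3. The ratio did not overlap between the lines in 4 of the 10 pairs, each with an exact p = 0.1, or 0.25 after Benjamini-Hochberg adjustment over the pairs. Among single genes, 45.2% did not overlap, and the pairs include partners with differences of opposite sign, so nothing particular to the pairs is read from this count. The log2 ratio of Syvn1 to Sel1l was 0.24 higher in M8, that of Ssr2 to Ssr3 0.23 higher, that of Atf6b to Atf6 0.17 higher, and that of Sec61b to Sec61a1 0.11 higher. The ratio of Hsp90b1 to Hspa5 differed by -0.032 (exact permutation p = 0.9) and that of Canx to Calr by -0.027 (exact p = 0.6). The ratio of Ero1lb to Ero1l differed by -0.14 (exact p = 0.6), with a parental SD of 0.31. As plain FPKM ratios, an alternative chosen after seeing the data, the same 4 pairs did not overlap and Ero1lb to Ero1l differed by -0.31 (exact p = 0.3), since the pseudocount weighs on the low gene.

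Chaperone promoters are known for the ER stress response element (ERSE), which binds NF-Y and ATF6 or XBP1. RefSeq promoter windows of GRCm38.p6, from 250 bases before to 50 bases after each start site, held 36 of the 43 genes. No window was given for Hyou1, Manf, Derl1, Atf6, Ppp1r15b, Sec61a1 or Ssr2. The motifs searched on both strands were ERSE (CCAAT, 9 bases of any kind, CCACG), ERSE-II (ATTGG, 1 base of any kind, CCACG) and the XBP1-associated UPRE (TGACGTGG). ERSE was found in 10 of the 36 genes, and in 0.119% of all 32851 windows. ERSE-II was found in Herpud1 and Dnajb11, and in 0.0365% of all windows, and UPRE in none of the 36, against 0.676%. Such elements are textbook features of these promoters, and a match does not show a bound site in these cells. The elements of the called genes, of the abundant chaperones Hspa5 and Calr and of Herpud1 are shown, 5′ to 3′ on the strand of the gene, with the fixed motif letters in capitals and 12 flanking bases on each side. A motif on the opposite strand reads CGTGG first and ATTGG second.
Hspa5: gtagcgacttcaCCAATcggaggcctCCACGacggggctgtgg
Calr: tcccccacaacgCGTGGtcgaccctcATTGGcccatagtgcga
Hsp90b1, first: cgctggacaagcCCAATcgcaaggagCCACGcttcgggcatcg
Hsp90b1, second: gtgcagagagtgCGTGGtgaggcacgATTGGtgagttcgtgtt
Canx: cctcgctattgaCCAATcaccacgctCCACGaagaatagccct
Pdia6: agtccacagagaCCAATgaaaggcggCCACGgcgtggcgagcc
Ero1lb: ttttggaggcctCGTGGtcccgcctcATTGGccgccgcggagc
Syvn1: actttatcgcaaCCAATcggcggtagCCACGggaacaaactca
Herpud1: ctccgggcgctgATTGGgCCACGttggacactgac

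The Hspa5 element lies at chr2:34772013-34772055 on the plus strand, with its first motif base 65 bases before the start site. The Calr sequence is chr8:84847063-84847105, the Canx sequence chr11:50325788-50325830, and those of Hsp90b1 chr10:86705626-86705668 and chr10:86705521-86705563, all on the minus strand. On the plus strand are the sequences of Pdia6 at chr12:17266479-17266521, Ero1lb at chr13:12565670-12565712, Syvn1 at chr19:6046520-6046562 and Herpud1 at chr8:94386365-94386399. The other genes with ERSE were Dnajc3, Creld2 and Derl3. Of the 9 tested genes with ERSE, 4 were lower in M8 (Hsp90b1, Canx, Pdia6 and Ero1lb) and 1 was higher (Syvn1), with a median log2 difference of -0.11, against 16.5% lower and 21.2% higher over all genes tested. Of the 26 genes with a window and no ERSE, 5 were lower and 5 higher, with a median of -0.056. Outside the list, 6 tested genes had ERSE, of which 1 was lower and 1 higher (median -0.086). The counts depended on the scaling. With TPM, 6 of the 9 genes with ERSE were lower and 0 higher, after quantile normalization 6 and 1, and with upper-quartile scaling 7 and 0. Of the 26 without ERSE, 10 were lower and 4 higher with TPM, 13 and 1 after quantile normalization, and 12 and 2 with upper-quartile scaling. The shares were not tested against each other.

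Other genes of the same pathways, 115 tested in 5 lists, had 15 higher (13.0%) and 20 lower (17.4%) in M8, with a median of 0.0051, against 21.2% and 16.5% over all genes tested. Among 29 other folding and glycan processing genes, 4 were higher (13.8%) and 7 lower (24.1%; median -0.023). The largest differences were in the transmembrane thioredoxin genes Tmx4 (13.7 ± 0.847 FPKM in parental cells and 10.6 ± 0.401 in M8, log2 -0.34, limma adjusted p = 0.00356) and Tmx3 (15.3 ± 1.68 and 11.9 ± 0.690 FPKM, -0.33, adjusted p = 0.0140). Sil1, a nucleotide exchange factor of BiP, followed at 46.8 ± 4.99 and 37.5 ± 0.448 FPKM (-0.31, limma adjusted p = 0.0112). Of 25 other degradation genes, 4 were higher (16.0%) and 1 lower (median 0.064). They included the ubiquitin-conjugating enzyme gene Ube2j2 (log2 0.34, limma adjusted p = 0.0309) and Ubxn8 and Ubxn6, which encode adaptors of p97 (0.26 and 0.20, limma adjusted p 0.0145 and 0.0402). Ube2j2 did not pass without M8 replicate 2 (0.28, limma adjusted p = 0.106), nor Ubxn6 without M8 replicate 1 (0.17, 0.134) or 2 (0.18, 0.116). Ubxn6 also did not pass under TPM (0.16, limma adjusted p = 0.105), quantile normalization (0.13, 0.158) or upper-quartile scaling (0.14, 0.122).

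Among 30 other genes of protein entry, 2 were higher (6.67%) and 6 lower (20.0%; median 0.0033). Sec63, which recruits BiP to the translocon, was lower (25.6 ± 0.543 FPKM in parental cells and 22.3 ± 0.185 in M8, SD, n = 3 each; limma adjusted p = 0.0101), and Srp19, a protein of the signal recognition particle, was higher (log2 0.18, limma adjusted p = 0.0252) but did not pass after quantile normalization (0.084, 0.179). Srp54a was lower (log2 -0.44, limma adjusted p = 0.0329), but near-identical copies of this gene make its value uncertain, and it did not pass without M8 replicate 1 (-0.40, limma adjusted p = 0.103) or 2 (-0.33, 0.105). Of 13 genes of COPII vesicles, which carry folded cargo out of the ER, the coat genes Sec13 and Sec31a were higher (log2 0.14 and 0.13, limma adjusted p 0.0778 and 0.0376) and none was lower, also at an unadjusted p below 0.05 (0 genes). Sec13 and Sec31a did not pass without M8 replicate 1 (limma adjusted p 0.208 and 0.113) or 2 (0.203 and 0.118), nor Sec13 without parental replicate 2 (0.223). Neither passed under TPM (log2 0.10 and 0.094, limma adjusted p 0.189 and 0.132), quantile normalization (0.045 and 0.043, 0.561 and 0.468) or upper-quartile scaling (0.076 and 0.070, 0.285 and 0.205), and Sec13 did not pass with the GC content and length correction (0.12, 0.110).

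Of 18 other tested genes of the unfolded protein response, 3 were higher (16.7%) and 6 lower (33.3%; median 0.00092). Nfyc, which encodes a subunit of the CCAAT-binding factor NF-Y, had 20.2, 21.4 and 19.4 FPKM in parental cells and 29.8, 27.5 and 26.5 in M8 and was higher (log2 0.44 ± 0.058, limma adjusted p = 0.00102). Crebrf, a repressor of the related factor CREB3, and Wfs1, an ER membrane protein, were lower (log2 -0.35 and -0.25, limma adjusted p 0.0149 and 0.0218). Other members of this list are named after their values were seen. Nfyb, another NF-Y subunit, was lower at 19.1 ± 0.760 FPKM in parental cells and 15.9 ± 0.705 in M8 (SD, n = 3 each; limma adjusted p = 0.00791), and Nfya did not pass (log2 -0.11, limma adjusted p = 0.107). With TPM (-0.15, limma adjusted p = 0.0709) and quantile normalization (-0.15, 0.0503), Nfya was lower. The proteases that cleave ATF6 in the Golgi were both lower, Mbtps1 by -0.12 and Mbtps2 by -0.25 (limma adjusted p 0.0337 and 0.0334). Mbtps1 did not pass without M8 replicate 3 (-0.11, limma adjusted p = 0.104), nor Mbtps2 without M8 replicate 1 (-0.20, 0.120).

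On the PERK branch, Atf4 encodes the factor translated during stress. It had 561, 543 and 568 FPKM in parental cells and 649, 680.1 and 639 in M8. This gene was higher without overlap (log2 0.24 ± 0.041, limma adjusted p = 0.00330), and the difference was 0.12 after quantile normalization (limma adjusted p = 0.0588). Ddit3, its target that encodes CHOP, was 259 ± 25.2 FPKM in parental cells and 269 ± 2.66 in M8 (SD, n = 3 each), and did not pass (log2 0.054, limma adjusted p = 0.551). The groups overlapped for Ddit3, whose sign turned under quantile normalization (-0.034), upper-quartile scaling (-0.0075) and without parental replicate 2 (-0.024).

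How the samples were scaled changed the balance of calls. Converted to TPM, which sums to the same total in every sample, 6 genes were higher and 17 lower. After quantile normalization or upper-quartile scaling, 3 were higher and 20 lower. Of the calls, 47.1% were higher on the deposited scale, 26.1% on TPM and 13.0% with each of the other methods, while centring each sample on its median gave 8 higher and 9 lower. Over all genes tested, TPM gave 15.6% higher and 20.8% lower, quantile normalization 17.2% and 16.7%, upper-quartile scaling 13.9% and 26.1%, and median centring 21.4% and 16.4%. The disulfide enzymes had 6 lower of 8 with TPM and 7 with quantile normalization or upper-quartile scaling, none higher. The median of each class kept its sign under these 4 scalings, but under TPM, quantile normalization and upper-quartile scaling that of the sensor genes was 0.011 to 0.035 and that of the translocon genes 0.0018 to 0.028. Hspa5 was lower under TPM (log2 -0.17, limma adjusted p = 0.0430), quantile normalization (-0.18, 0.0366) and upper-quartile scaling (-0.19, 0.0287). Calr, Hyou1, Pdia3, Edem1, Sel1l and Selk were also lower under each of these 3 scalings, Pdia5 under TPM and upper-quartile scaling, P4hb under quantile normalization and upper-quartile scaling, Dnajb11 and Pdia4 under quantile normalization and Dnajc3 under upper-quartile scaling. Xbp1 was lower with quantile normalization (-0.12, limma adjusted p = 0.0856) and upper-quartile scaling (-0.12, 0.0884).

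**Figure D4:**
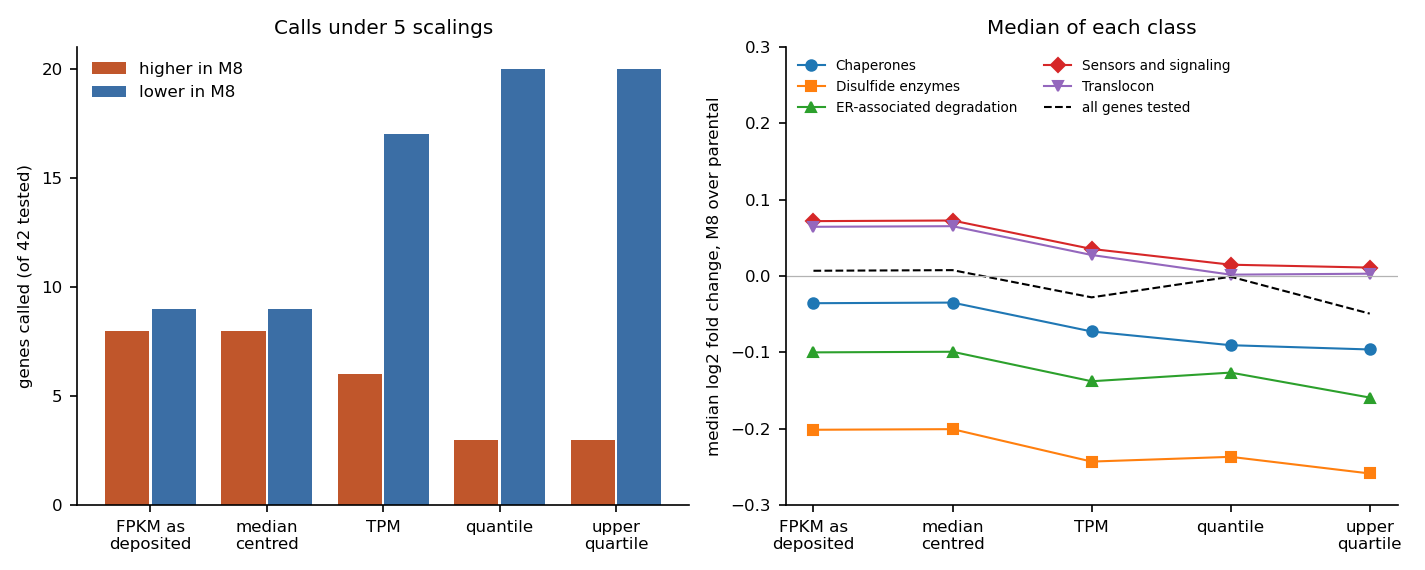
Left, number of the 42 tested genes called higher (orange) or lower (blue) in M8 under 5 ways of scaling the samples (y axis, genes). Right, median log2 fold change of each class under the same scalings (y axis), with the median of all genes tested as a dashed line. Disulfide enzymes stay lowest at -0.20 or below, and the sensor and translocon medians approach 0.

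Of the 17 called genes, 6 passed under all 4 scalings and in each of the 6 fits that left out 1 sample. These were Hsp90b1, Pdia6, Dnajc10 and Ero1lb, lower in M8, and Fkbp2 and Ppp1r15b, higher in M8. Sec61b passed in each fit without 1 sample but not after quantile normalization (log2 0.086, limma adjusted p = 0.294) or the GC content and length correction (0.13, 0.121). Canx and Ssr3 also did not pass with that correction (-0.078 and -0.057, limma adjusted p 0.166 and 0.247). Among the other called genes that were higher, Syvn1 did not pass under TPM or upper-quartile scaling (0.098 and 0.073), and Atf6b (0.083 and 0.097), Ssr2 (0.025 and 0.066) and Ppib (0.031 and 0.076) did not pass under quantile normalization or upper-quartile scaling. Ppp1r15a passed under none of TPM (0.068), quantile normalization (0.015) and upper-quartile scaling (0.044). The 5 other lower genes, Canx, Ero1l, Edem2, Edem3 and Ssr3, passed under every scaling and lost the call without single samples. None of the 17 changed direction in any alternative.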

How the data were processed

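Poly(A) RNA of 6 samples, 3 of CT26.mMR1 and 3 of M8, was sequenced from stranded libraries as 101-base single reads. The authors aligned them to mm10 (TopHat) and computed FPKM values (Cufflinks), deposited as 1 table per sample. The submitters' processing notes name TopHat2 2.1.1, Bowtie2 2.2.8, SAMtools 0.1.18 and Cuffdiff 2.2.1, and the gene annotation is not given in the sources used here. FPKM divides by depth and transcript length, so where depth is the total of mapped reads, a rise in a few abundant genes lowers the rest. Replicates are labelled by number, and the study calls them biological. Separate cultures are not described, so p-values measure the spread between these samples, which may be partly technical.

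The test was limma (version 3.58.1, under R 4.3.3), with a linear model and trended empirical Bayes moderation on log2(FPKM + 1), for genes with a mean FPKM of 1 or more, with no covariate, Benjamini-Hochberg adjustment over all 10597 genes and a threshold of 0.1. The code of the fit was also run on simulated independent normal values with known changes added. That run cannot show how the test behaves under FPKM scaling or dependence between samples. Exact permutation tests used scipy 1.17.1 under Python 3.11.15, tables used pandas 2.3.3 and figures matplotlib 3.10.9. Depth was estimated from the FPKM steps of low genes, and no counting error is attached to FPKM values. Of the symbols, 23143 matched RefSeq, 1086 a synonym and 117 neither.

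The 44 genes, their classes, the other lists and the motifs were chosen with earlier results of these data known. All 44 are reported. From each other list the counts and the 3 genes that changed most past the threshold are named, and others are marked. Alternatives were pseudocounts of 0.1 and 0.5, no filter or a mean of 5 FPKM, TPM, quantile, upper-quartile and median scaling, no trend, an adjusted p below 0.05, a 1.5-fold threshold, replicate number as a block, a loess correction for GC content and length (span 0.5), and each sample left out.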

Additional observations from a re-analysis of the deposited data

How the results depend on the processing

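Under 20 alternatives, 681 of 839 values of the ER genes kept their direction and their side of the threshold, 85 lost and 46 gained a call, and 27 changed sign, none of them in a called gene. Of the 42 genes, 9 were lower in M8; this was 17 with TPM, 20 with quantile normalization, 20 with upper-quartile scaling, 5 at an adjusted p below 0.05 and 0 at 1.5-fold on log2(FPKM + 1), although Ero1lb was past 1.5-fold by its mean FPKM and with pseudocounts of 0.1 (-0.70) and 0.5 (-0.63). The 8 higher genes became 3 with quantile normalization, 3 with upper-quartile scaling and 0 at 1.5-fold. The median of -0.056 was -0.093 with TPM, -0.10 after quantile normalization and -0.12 under upper-quartile scaling. With 1 sample left out, there were 3 to 8 higher and 5 to 11 lower genes and a median from -0.058 to -0.037; the lowest counts were 3 higher and 5 lower without M8 replicate 2, and 5 lower without M8 replicate 1. The GC content and length correction left 6 higher and 8 lower, with Canx, Ppp1r15a, Sec61b and Ssr3 losing their calls and Calr gaining one. The cause of these shifts was not tested.

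Deviations of samples with the same replicate number had correlations of 0.10, -0.11 and -0.033, and those with different numbers from -0.13 to 0.18. With 3 samples in each line, such values cannot show whether samples of the same number were handled together. With the replicate number as a block, 7 genes were higher and 10 lower. Pdia5 (limma adjusted p = 0.0924) and Selk (0.0624) gained a call and Ppp1r15a (0.130) and Ssr3 (0.118) lost it.

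Signs that turned, all in genes without a call, were with TPM Dnajb9 -0.023, Derl1 -0.019, Eif2ak3 -0.027 and Ppic -0.035. With quantile normalization they were Manf -0.027, Creld2 -0.0084, Herpud1 -0.028, Derl1 -0.073, Ern1 -0.0022, Sec61a1 -0.040, Ppic -0.10 and Ddit3 -0.034. With upper-quartile scaling they were Dnajb9 -0.046, Manf -0.015, Herpud1 -0.0050, Derl1 -0.043, Eif2ak3 -0.047, Ssr1 -0.019, Ppic -0.060 and Ddit3 -0.0075, which was also -0.024 without parental replicate 2. With the GC content and length correction, with or without the block, they were Atf6 0.0026, Eif2ak3 -0.0053 and Ppic -0.0073. With 1 sample left out, values went from -0.063 to 0.071 for Eif2ak3, from -0.026 to 0.043 for Dnajb9, from -0.12 to 0.0038 for Pdia4, from -0.019 to 0.044 for Derl1, from -0.035 to 0.033 for Ppic, from -0.051 to 0.025 for Atf6 and from -0.0066 to 0.12 for Sdf2l1.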
